A study of Sus scrofa with 12 samples.

Results

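The small heat shock proteins and their partners were described as 9 listed genes, HSPB1, HSPB2, HSPB3, HSPB6, HSPB7, HSPB8, CRYAB, BAG3 and DNAJB6, of which 8 could be matched to 1 gene identifier each among the 35682 genes counted. HSPB2 had no identifier in the symbol table used and was not analysed here. The members were taken by symbol alone, and all 8 passed the filter on low counts and were tested among 13844 genes.

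RNA was measured in 12 poly(A)-enriched, nondirectional libraries from the hearts of 6 female Yorkshire pigs, with 1 border zone and 1 remote zone library from each of animals 1022, 1322, 1323, 1623, 1922 and 3622. All animals had a 60 min balloon occlusion of the left anterior descending artery followed by reperfusion, and from day 9 all received 3 immunosuppressants, namely 0.75 mg of tacrolimus per kg of body weight each day with daily doses of 500 mg for mycophenolate mofetil and 20 mg for prednisolone. On day 14 each animal was given either vascular organoids of human endothelial progenitor and smooth muscle cells or fibrin glue alone, through a left thoracotomy. Which animal received which was not used as a factor. Both arms may therefore be mixed in each region, and no library comes from an uninjured heart. The border zone lay next to the infarct and the remote zone away from it, in the same ventricle. The comparison therefore asks how the chaperones differed between myocardium near the injury and myocardium of the same hearts far from it.

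Small heat shock proteins share an alpha-crystallin domain, assemble into oligomers and bind unfolding proteins without using ATP, holding them until ATP-driven chaperones refold or discard them. Striated muscle is rich in them, where they associate with desmin, actin, titin and filamin under mechanical load. BAG3 binds small heat shock proteins, above all HSPB8, and links them to HSP70 chaperones in chaperone-assisted selective autophagy, which clears damaged Z-disc proteins. DNAJB6 is an HSP70 co-chaperone of the J-domain family that suppresses protein aggregation and belongs to the same Z-disc machinery. Inherited variants in CRYAB, BAG3, HSPB8 and DNAJB6 cause myopathies, some with cardiomyopathy.

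In the RefSeq annotation of the pig genome (Sscrofa11.1), HSPB1 lay at chr3:10038074-10039441, HSPB3 at chr16:33716458-33717402, HSPB6 at chr6:45181439-45184011 and HSPB7 at chr6:75171507-75174918. HSPB8 lay at chr14:33626125-33639824, CRYAB at chr9:39638505-39643530, BAG3 at chr14:129510240-129533998 and DNAJB6 at chr18:1444737-1499904. HSPB3, BAG3 and HSPB2 were on the forward strand and the others on the reverse strand. The genes of the 7 small heat shock proteins were compact, with coding parts of 150 to 207 codons in 1 to 3 exons, or 4 for CRYAB. HSPB2 (chr9:39640117-39644104) lies across CRYAB on the opposite strand, and their exons overlapped by 214 bp, or 17.3% of the CRYAB exons. A further gene on that strand, C9H11orf1, overlapped 166 bp of CRYAB exon, 13.5% of its length. Since the libraries do not keep strand, reads in these stretches cannot be told apart, and the CRYAB values below are uncertain to that extent.

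The 250 bases before each annotated start were searched on both strands for heat shock elements, the repeats bound by heat shock factors, and for the MEF2 motif, bound by a muscle transcription factor. The long heat shock element was written GAANNTTCNNGAA or TTCNNGAANNTTC and the short one GAANNTTC or TTCNNGAA, so that each long match also holds short ones. The 4 members with a match, in capitals below, are printed 5′ to 3′ on the strand of the gene because only these held a match. They come from the RefSeq assembly of Sscrofa11.1, at chr18:1499905-1500154 for DNAJB6, chr3:10039442-10039691 for HSPB1, chr6:75174919-75175168 for HSPB7 and chr14:33639825-33640074 for HSPB8.
DNAJB6: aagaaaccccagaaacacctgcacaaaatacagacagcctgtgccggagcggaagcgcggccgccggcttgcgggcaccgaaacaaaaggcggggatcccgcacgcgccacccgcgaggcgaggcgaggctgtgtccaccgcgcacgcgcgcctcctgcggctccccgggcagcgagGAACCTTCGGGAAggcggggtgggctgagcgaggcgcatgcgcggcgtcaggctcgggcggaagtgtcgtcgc
HSPB1: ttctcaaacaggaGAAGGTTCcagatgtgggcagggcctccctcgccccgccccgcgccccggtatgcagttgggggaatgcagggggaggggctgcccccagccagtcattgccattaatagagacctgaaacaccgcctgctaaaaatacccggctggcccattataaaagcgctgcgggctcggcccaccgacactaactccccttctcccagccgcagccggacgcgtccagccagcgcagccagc
HSPB7: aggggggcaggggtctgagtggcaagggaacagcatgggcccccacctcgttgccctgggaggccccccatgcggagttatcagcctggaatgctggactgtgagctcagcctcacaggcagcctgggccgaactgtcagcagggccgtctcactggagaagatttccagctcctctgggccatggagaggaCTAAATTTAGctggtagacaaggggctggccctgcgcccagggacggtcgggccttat
HSPB8: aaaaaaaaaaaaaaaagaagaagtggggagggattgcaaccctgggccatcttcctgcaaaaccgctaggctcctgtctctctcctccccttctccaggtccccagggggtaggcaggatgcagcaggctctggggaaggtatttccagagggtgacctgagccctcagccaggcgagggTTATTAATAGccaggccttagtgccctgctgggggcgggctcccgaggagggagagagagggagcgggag

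The long heat shock element in DNAJB6, GAACCTTCGGGAA, lay at -73 to -61 from the start, and such a match was found in 65 of 19527 promoters of the same length (0.333%). HSPB1 held the short element GAAGGTTC at -237 to -230, a form found in 2045 promoters (10.5%). RefSeq annotates only the coding part of HSPB1, so these positions count from the start of its coding part. The MEF2 motif matched CTAAATTTAG at -58 to -49 of HSPB7 and TTATTAATAG at -70 to -61 of HSPB8, against 498 promoters (2.55%) in the genome. These matches describe letters in the window and are not measured binding sites. The window of CRYAB lay inside a coding exon of HSPB2.

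Depth was 15130210 to 30526110 counts on genes per border zone library and 20091415 to 31618680 per remote zone library, and each member had at least 515 counts in every library. The tissue was heart muscle by its markers, since the 12 cardiomyocyte genes measured summed to 68029 to 114867 CPM (counts scaled to a library of fixed size) in the remote zone. A single library stood apart in its markers. In the border zone library of animal 1022 the cardiomyocyte genes summed to 14606 CPM, against 51352 to 81735 CPM in the other 5 border zone libraries, and 15 fibroblast and matrix genes summed to 74894 CPM against 3776 to 13034 CPM. In the same region, the library of animal 3622 listed 28024 genes with a count, against 17563 to 20148 in the others. Results are also given without animal 1022 where they rest on it. CPM values were scaled by TMM, a method that sets libraries level on the bulk of their genes.

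Levels between genes were compared per kilobase of annotated exon. HSPB7, a small heat shock protein of striated muscle that limits actin polymerization, was highest, with a median of 1560.4 CPM per kb and a range of 557 to 2088 over 12 libraries. HSPB6, also called HSP20, had a median of 1153 CPM per kb and CRYAB, the alpha-B crystallin that guards desmin, 1142 CPM per kb. These neighbours could not be ordered, since HSPB6 was above CRYAB in 6 of 12 libraries. HSPB7 was above HSPB6 in 9 of 12.

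HSPB1, the actin- and filamin-associated chaperone also called HSP27, followed at a median of 919.7 CPM per kb, below CRYAB in 11 of 12 libraries. Only the coding part of HSPB1 is annotated in RefSeq (624 bp), and its level per kb may not be comparable with the others. These 4 genes were among the most abundant in the tissue, with median ranks of 32, 44, 45 and 55 for HSPB7, HSPB6, CRYAB and HSPB1 among 14318 genes. HSPB8, the partner of BAG3, was well below them at a median of 170.4 CPM per kb, lower than HSPB1 in 12 of 12 libraries.

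HSPB3, a muscle chaperone that pairs with HSPB2, had a median of 51.6 CPM per kb and was below HSPB8 in 12 of 12 libraries. BAG3 followed at 35.8 CPM per kb, below HSPB3 in 11 of 12, and DNAJB6 at 21.6 CPM per kb, below BAG3 in 10 of 12. The DNAJB6 length of 8006 bp joins the exons of 10 transcripts, and a shorter used form would raise its level per kb. In ranks, HSPB8 stood at a median of 241, HSPB3 at 868, BAG3 at 1151 and DNAJB6 at 1796.

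**Figure D1:**
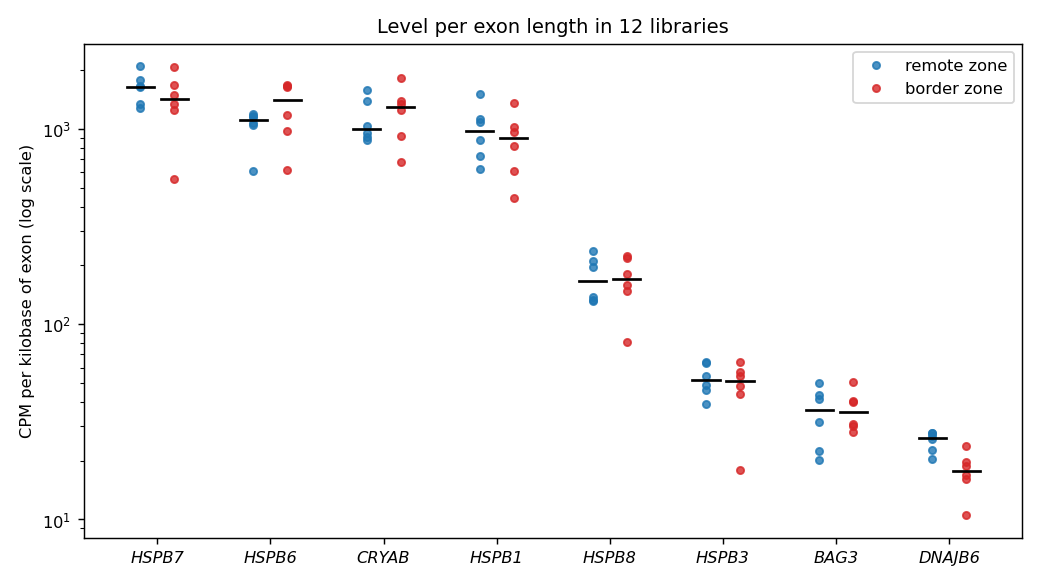
Level of each gene in CPM per kilobase of exon on a log axis, with 1 point for each of the 6 remote zone (blue) and 6 border zone (red) libraries and a bar at the median. HSPB7, HSPB6, CRYAB and HSPB1 lie highest and overlap, HSPB8 lies below all of them, and HSPB3, BAG3 and DNAJB6 lie lowest, while both regions overlap for every gene.

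No member differed between the regions past the threshold. By edgeR's quasi-likelihood test, 0 of 8 members had an adjusted p under 0.05, where 287 of the 13844 genes tested did (2.07%), 285 of them higher and 2 lower. At an unadjusted p under 0.05 the count was 1 of 8, DNAJB6, against 24.7% of all genes. DESeq2 called 1 of 8, again DNAJB6, against 10.2% of the genes it tested. With the animal as a block, edgeR called 0 of 8 members and 0.296% of all genes. The median log2 fold change of the members, border minus remote, was -0.096, with 3 above 0 and 5 below, beside 0.038 for all genes tested. The 2 groups of libraries overlapped for all 8 members. A border zone wholly below the remote zone was seen for 0.701% of genes and one wholly above it for 1.99%.

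Among the small heat shock proteins that bind actin and desmin, HSPB6 had the highest fitted value of the members. It ranged from 907 to 2468 CPM in the border zone, with a median of 2075, and from 898 to 1752 CPM in the remote zone, with a median of 1632. The 3 border zone libraries of highest value (animals 1322, 1323 and 3622) were above every remote zone library, and those of animals 1022 and 1922 were below the remote zone median. Its log2 fold change was 0.31 ± 0.27 (SE, n = 6 libraries per region), with an adjusted p of 0.498 by edgeR.

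CRYAB ranged from 832 to 2258 CPM in the border zone (median 1603) and from 1077 to 1954 CPM in the remote zone (median 1226). Animal 3622 was highest in both regions. The fit gave a log2 fold change of 0.13 ± 0.26 (SE), with an adjusted p of 0.788 by edgeR, and 0.021 without animal 1322 or 0.21 without animal 1022.

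HSPB7 ranged from 714 to 2656 CPM in the border zone (median 1816) and from 1641 to 2679 CPM in the remote zone (median 2106). The 714 CPM of animal 1022 was less than any other of the 12 libraries, 4 of the other 5 border zone libraries lay inside the remote zone range and that of animal 1922 just below it (1607 CPM). The log2 fold change was -0.22 ± 0.28 (SE), with an adjusted p of 0.659 by edgeR, and -0.036 without animal 1022.

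HSPB1 was spread from 277 to 846 CPM in the border zone (median 558) and from 390.3 to 947 CPM in the remote zone (median 609.9). Animals differed more than regions did, with 3622 highest in both. Fitted over all libraries, the log2 fold change was -0.19 ± 0.29 (SE), with an adjusted p of 0.724 by edgeR.

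HSPB3, the lowest per kb of the 6 small heat shock proteins measured, stood at 17.0 to 60.8 CPM in the border zone (median 48.3) and 37.0 to 60.4 CPM in the remote zone (median 48.8). The medians were nearly equal, and the 17.0 CPM of animal 1022 was the only border zone value under the remote zone range. Its log2 fold change was -0.14 ± 0.25 (SE), with an adjusted p of 0.761 by edgeR, and -0.016 without animal 1022.

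HSPB8, which hands clients to BAG3, ranged from 166 to 459 CPM in the border zone (median 351) and from 269.8 to 487 CPM in the remote zone (median 344). Again the lowest library was the border zone of animal 1022. The log2 fold change was -0.049 ± 0.26 (SE), with an adjusted p of 0.926 by edgeR, and it turned to 0.13 without animal 1022 (adjusted p 0.830 by edgeR). Summed over the 6 small heat shock proteins, the level was 2914 to 8581 CPM in the border zone (median 6429) and 4326 to 7654 CPM in the remote zone (median 5945).

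BAG3, the co-chaperone that couples HSPB8 to HSP70, ranged from 80.6 to 145 CPM in the border zone (median 102) and from 57.5 to 143 CPM in the remote zone (median 105). It was the only member whose lowest border zone library was not that of animal 1022. The log2 fold change was 0.080 ± 0.24 (SE), with an adjusted p of 0.868 by edgeR, and -0.048 without animal 1322.

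DNAJB6, the J-domain partner, stood nearest to the threshold. It ranged from 84.0 to 191 CPM in the border zone (median 142) and from 163 to 223 CPM in the remote zone (median 210.4). In 5 of 6 animals the border zone library was below every remote zone library, and only that of animal 1322, at 191 CPM, was above 2 of them (animals 1323 and 1623).

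The log2 fold change of DNAJB6 was -0.52 ± 0.19 (SE), a fold of 0.699, with a p of 0.0168 and an adjusted p of 0.129 by edgeR's quasi-likelihood test. Only 8.63% of the genes tested had a lower fold change. With the animal as a block the value was -0.55 ± 0.18 (SE), with an adjusted p of 0.105 by edgeR. DESeq2 gave -0.56 with an adjusted p of 0.0412, the only setting of those tried in which a member passed, and 1.83% of the genes it tested were called lower. Without animal 1022 the edgeR value was -0.40, with an adjusted p of 0.224, or 0.0779 with the block.

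**Figure D2:**
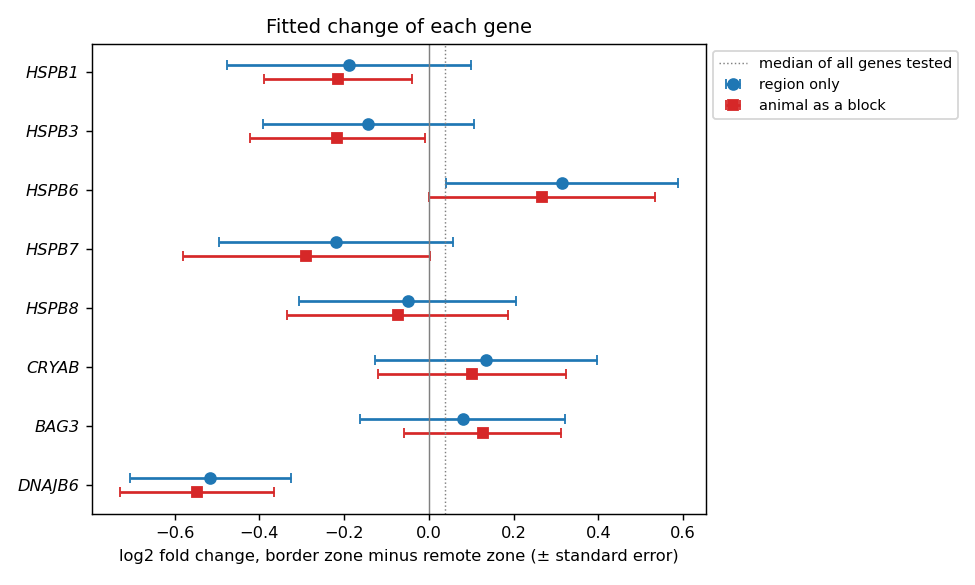
Fitted log2 fold change (border zone minus remote zone) of the 8 genes, with region as the only term (blue) and with the animal as a block (red), bars being ± 1 standard error and the dotted line the median of all genes tested (0.038). DNAJB6 lies at -0.52 and -0.55, HSPB6 is the highest at 0.31 and 0.27, and no gene had an adjusted p under 0.05 in either fit.

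Within animals, DNAJB6 was lower near the infarct in 6 of 6 animals, with log2 ratios from -1.30 in animal 1022 to -0.22 in animal 1322 and a median of -0.39, and in 5 of 6 when libraries were scaled by their totals. Its level went from 206 CPM in the remote zone to 84.0 in the border zone of animal 1022, from 223 to 191 in 1322 and from 163 to 129 in 1323. In animal 1623 it went from 182 to 149.7, in 1922 from 215 to 159 and in 3622 from 223 to 135 CPM.

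HSPB1 was also lower in 6 of 6 animals, though by little in 5 of them. Its ratios were -0.71 in animal 1022 and -0.16 to -0.040 in the other 5, and by library totals it was lower in 1 of 6 only. Of all genes tested, 11.1% were lower in 6 of 6 animals, against 2 of 8 members, and 11.7% were higher in all 6, against 0 of 8 members.

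In 4 of 6 animals HSPB6 had its higher level in the border zone, with log2 ratios of 0.47 to 0.96 in these 4, -0.13 in animal 1922 and -0.77 in animal 1022. CRYAB, HSPB8 and BAG3 were each higher in 3 animals and lower in 3, with medians of 0.080, -0.00316 and -0.00116. HSPB3 and HSPB7 were each lower in 4 of 6, with medians of -0.094 and -0.074. Without animal 1022 each was lower in 3 of 5, with medians of -0.029 and -0.012. Animal 1322 was the one in which HSPB8 (0.74), BAG3 (0.85), CRYAB (0.61) and HSPB7 (0.32) had their highest ratios.

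**Figure D3:**
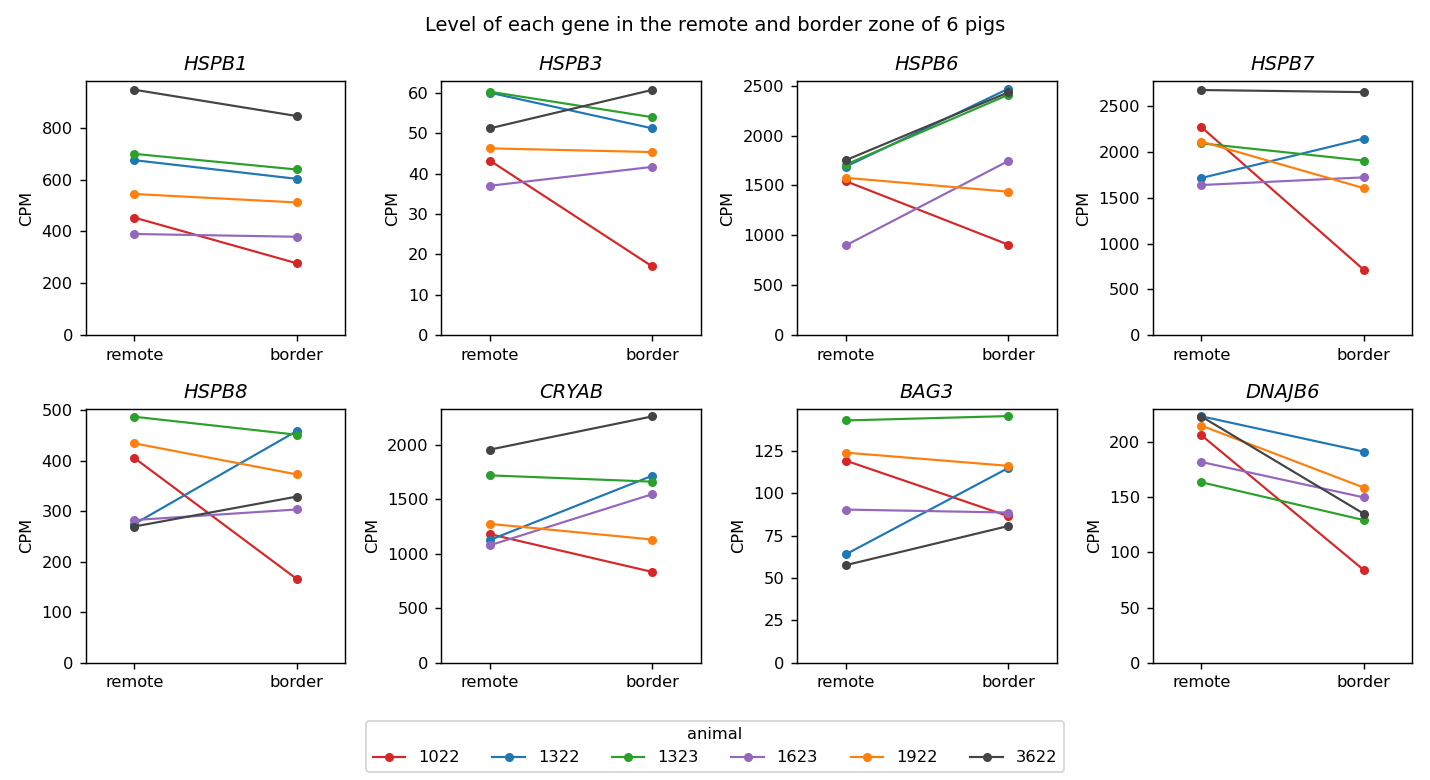
CPM of each gene in the remote zone and the border zone, with a line joining the 2 libraries of each of the 6 animals and every axis starting at 0. All 6 lines fall for HSPB1 and DNAJB6, 4 of 6 rise for HSPB6, and the line of animal 1022 (red) falls in every panel.

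These directions were set beside the marker genes of heart muscle, because striated muscle is rich in small heat shock proteins. The cells that made the members' RNA were not measured here. The mean within-animal log2 ratio of the 12 cardiomyocyte genes was below 0 in 6 of 6 animals, with a median of -0.42 and -2.26 in animal 1022. In bulk tissue, fewer cells of a type and less RNA per cell cannot be told apart. Fibroblast and matrix genes were higher in 6 of 6 animals (median 2.13), macrophage genes in 5 of 6 (median 0.85), smooth muscle and pericyte genes in 5 of 6 (median 0.55) and endothelial genes in 3 of 6 (median 0.019, or -0.23 with 2 of 5 higher when animal 1022 was left out). Of the genes in each list, edgeR called 0 of 12 cardiomyocyte genes, 14 of 15 fibroblast and matrix genes (all higher), 1 of 12 macrophage genes (higher), 0 of 12 smooth muscle and pericyte genes, 0 of 12 endothelial genes, 0 of 2 skeletal muscle genes and 0 of 4 adipocyte genes. With the animal as a block, 2 of the 15 fibroblast and matrix genes, 0 of the 12 macrophage genes and 1 of the 4 adipocyte genes were called, all higher. Their part in the members' values was not tested.

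Relative to the cardiomyocyte genes, 7 of 8 members had a median above 0 in the border zone, as did 92.7% of all genes tested, so the count is no more than the background. The median difference over all genes tested was 0.52, the same as over the 8 members, and 36.6% of genes were above 0 in 6 of 6 animals. HSPB6 exceeded the cardiomyocyte mean in 6 of 6 animals, by a median log2 difference of 1.05. CRYAB (0.74), BAG3 (0.69) and HSPB8 (0.61) also exceeded it in 6 of 6, while HSPB3 (0.43), HSPB7 (0.39) and HSPB1 (0.33) did so in 5 of 6. Measured against TNNT2, ACTN2, MYBPC3 and RYR2 alone the differences were smaller, at 0.70 for HSPB6 (5 of 6 animals), 0.30 for CRYAB, 0.33 for BAG3 and 0.23 for HSPB8 (6 of 6 each). HSPB3 then had 0.31 (5 of 6), HSPB1 0.14 and HSPB7 0.13 (4 of 6 each).

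DNAJB6 had a median difference of -0.00407 and was above the cardiomyocyte mean in 3 of 6 animals, with a range of -0.20 to 0.97. Against the 4 genes its median was -0.11, with 2 of 6 animals above 0. Without animal 1022 the medians were 0.98 for HSPB6, 0.63 for CRYAB, 0.52 for BAG3, 0.45 for HSPB8 and -0.077 for DNAJB6. The median over the 8 members was 0.26 with those 4 genes. Smooth muscle cells also make HSPB1, HSPB6 and CRYAB, and these values are given with no test.

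**Figure D4:**
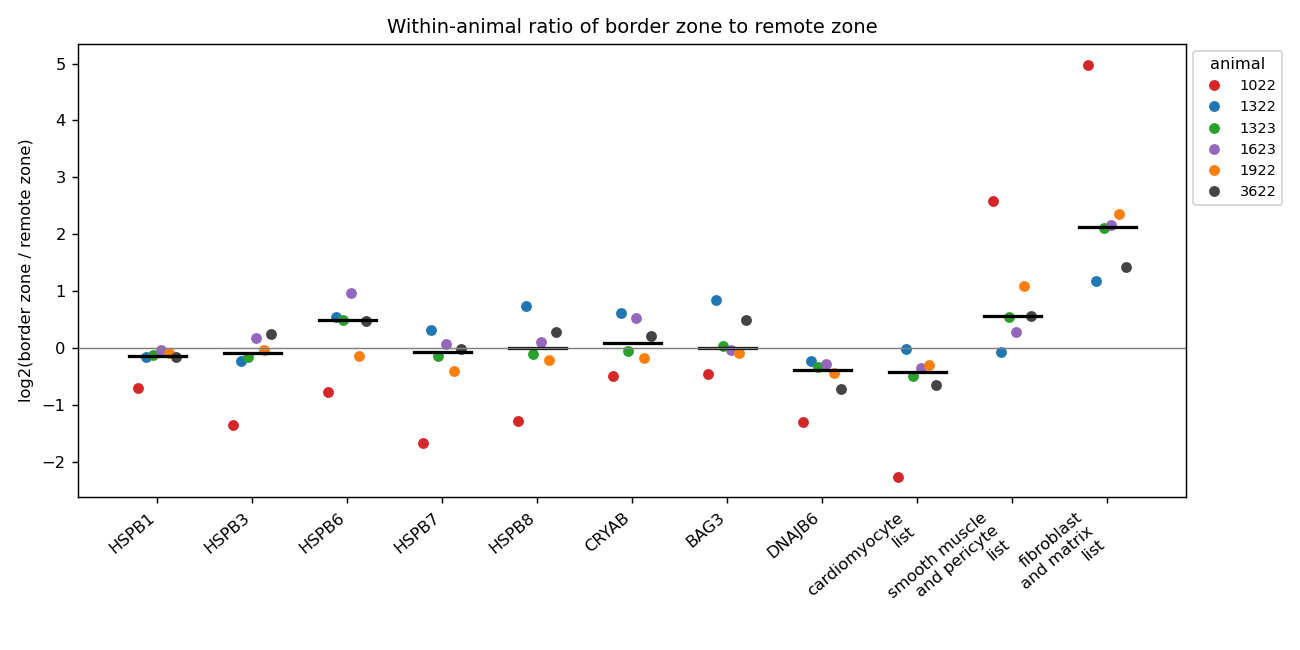
Log2 ratio of border to remote zone in each animal for the 8 genes and for the mean of 3 marker lists, with 1 coloured point per animal and a bar at the median. DNAJB6 (median -0.39) lies beside the cardiomyocyte list (-0.42), HSPB6 has the highest median of the genes (0.48), and animal 1022 (red) is the lowest point of every gene and of the cardiomyocyte list and the highest of the other 2 lists.

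The ratio of HSPB6 to HSPB7, a pair of adjacent abundance, was 0.894 to 1.27 in the border zone (median 1.08) and 0.547 to 0.982 in the remote zone (median 0.712), in CPM. In 6 of 6 animals this ratio was higher on the border side. The ratio of HSPB8 to its partner BAG3 was 1.92 to 4.08 in the border zone (median 3.32) and 3.13 to 4.69 in the remote zone (median 3.46), and that of CRYAB to HSPB1 was 2.21 to 4.07 and 1.67 to 2.76. Within animals, HSPB8 to BAG3 was lower on the border side in 5 of 6 and CRYAB to HSPB1 higher in 5 of 6. These ratios overlapped between regions, and the same counts for pairs of other genes were not computed.

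Across the 12 libraries, the members fell into looser and tighter company, given here as Pearson correlations of log2 CPM with no test, since both libraries of an animal and the tissue mix are shared. The correlation of HSPB3 with HSPB7 was 0.869, but it rested on the border zone library of animal 1022 and was 0.427 over the other 11, a setting chosen after the data were seen. Other pairs also fell without that library. HSPB3 with HSPB8 went from 0.708 to 0.202, HSPB7 with HSPB8 from 0.664 to 0.106 and HSPB7 with DNAJB6 from 0.693 to 0.129. HSPB1 with HSPB3 gave 0.844 (0.836 without that library) and HSPB6 with CRYAB 0.822 (0.740). BAG3 with HSPB8 gave 0.725 (0.916 without it), and 9.48% of genes were more like BAG3 over the 12 libraries than HSPB8 was. With the remaining members BAG3 gave between -0.17 and 0.17, or -0.39 and 0.11 without it. Compared over 11725 genes with a symbol, HSPB6 was most like DES (0.887), which encodes desmin, ANKRD1 (0.885), a stretch-responsive ankyrin repeat protein, and SRRM4 (0.869).

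HSPB7 was most like PGAM5 (0.965), HRC (0.948), a calcium-binding protein of the sarcoplasmic reticulum, and GPN1 (0.944), and HSPB1 was most like IL17RB (0.948), SLC2A11 (0.936) and TRIM54 (0.933). HSPB3 was most like SLC2A11 (0.957), PCP4 (0.948) and RAP1A (0.940), and HSPB8 most like USP28 (0.960), GRAMD2B (0.952) and PPP2CA (0.951). CRYAB had PALMD (0.933), MTERF3 (0.930) and TM7SF2 (0.929) nearest to it. BAG3 had GZF1 (0.971), UHMK1 (0.971) and HAPSTR1 (0.970). The nearest genes to DNAJB6 were TST (0.987) and ABHD10 (0.986), both mitochondrial proteins, and MRPL49 (0.985), a mitochondrial ribosomal protein. Without the border zone library of animal 1022 these 24 correlations lay between 0.728 and 0.980. The genes were picked for high values over the 12 libraries and were not ranked again. Whether they stay the nearest is therefore not shown.

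The wider chaperone network showed no called gene in any of the lists by edgeR, against 2.07% of all genes, and genes of lowest p are named for each. Of the 4 other small heat shock proteins listed, HSPB9 and ODF1 did not pass the filter, and CRYAA and HSPB11 had no identifier. Among the 5 other BAG family genes, BAG6 had a log2 fold change of -0.23 and BAG1, an HSP70 exchange factor that directs clients to the proteasome, -0.21, and the list median was -0.21. The partners of chaperone-assisted selective autophagy (14 tested) had a median of -0.12. There, the actin crosslinker FLNA had 1.49 (adjusted p 0.0861 by edgeR, or 0.174 with the animal as a block), and 0.65 without animal 1022.

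Heat shock factors and cytosolic chaperones (20 tested) had a median of -0.24, with 14 below 0, against 46.7% of all genes tested. The mean of the cardiomyocyte genes was lower in 6 of 6 animals. Its part in this list and in the CCT and mitochondrial lists below was not tested. HSF1, the master regulator of the heat shock response, ranged from 41.4 to 72.7 CPM in the border zone (median 57.4) and from 68.4 to 98.5 CPM in the remote zone (median 78.7). It was lower in 6 of 6 animals, with a log2 fold change of -0.49 ± 0.16 (SE), a p of 0.00705 and an adjusted p of 0.0915 by edgeR. HSPBP1, an HSP70 exchange factor, had -0.41 (adjusted p 0.148 by edgeR).

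The DNAJ co-chaperones other than DNAJB6 (16 tested) had a median of -0.021. DNAJB6 at -0.52 ± 0.19 (SE) was close to the lowest of them, DNAJA3, a mitochondrial J-domain protein at -0.49 ± 0.24 (SE), which is named after its value was seen. DNAJC3, of the endoplasmic reticulum, had 0.54 (adjusted p 0.130 by edgeR) and DNAJB2, which sorts clients to the proteasome, -0.38 (0.174). All 7 tested subunits of the CCT chaperonin, which folds actin and tubulin, were below 0 (median -0.19, against 46.7% of all genes below 0), CCT7 at -0.49 and CCT4 at -0.34. All 5 mitochondrial chaperones were also below 0 (median -0.39), HSPE1, the mitochondrial co-chaperonin, at -0.58 and TRAP1, the mitochondrial HSP90, at -0.51.

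Of the endoplasmic reticulum chaperones 0 of 12 were called, with a median of 0.39 and 10 of 12 above 0, against 53.3% of all genes tested. The mean of the fibroblast and matrix genes was higher in 6 of 6 animals, and its part in these values was not tested. HYOU1, a large HSP70-like chaperone, had 0.66 (adjusted p 0.0661 by edgeR) and PDIA4, a disulfide isomerase, 0.48 (0.119), each higher in 6 of 6 animals. Of 10 cytoskeletal and sarcomeric clients tested, with a median of 0.065, VIM, the intermediate filament of fibroblasts and other stromal cells, had 1.82 (adjusted p 0.0646 by edgeR, and 0.91 without animal 1022) and TCAP, the titin cap of the Z-disc, -0.73 (0.154). None of these values passed the threshold.

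**Figure D5:**
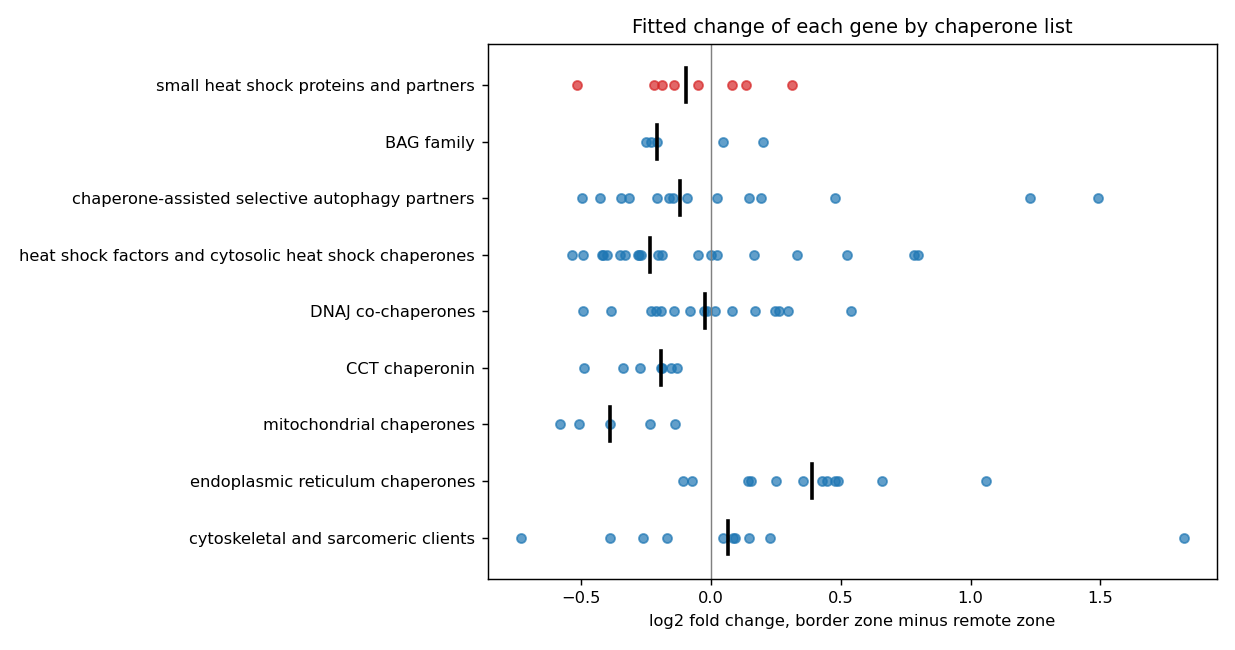
Fitted log2 fold change (border zone minus remote zone) of each tested gene by list, with 1 point per gene and a bar at the list median. The 8 members (red) have a median of -0.096, mitochondrial chaperones the lowest median (-0.39) and endoplasmic reticulum chaperones the highest (0.39), and the points farthest to the right are VIM and FLNA.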

How the data were processed

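Hearts of 6 pigs gave 1 border zone and 1 remote zone library each, placed by the region and animal number in the sample titles. The extraction notes in the labels name only the border zone, so that the remote zone rests on the titles and on the study's methods. The labels used here do not give the treatment arm of each animal, and it was not used. The deposited values are raw counts of reads per gene, which the authors made by aligning to Sscrofa11.1 with STAR and counting with featureCounts, after checks with FastQC and MultiQC. How reads that match several genes were counted is not given in the sources used here, so counts of overlapping genes are uncertain.

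The software was edgeR 4.0.16, DESeq2 1.42.0 and limma 3.58.1, run in R 4.3.3, with tables made by pandas 2.3.3 and NumPy 2.4.6 in Python 3.11.15 and plots by matplotlib 3.10.9. A symbol was found for 15623 of 35682 identifiers. Genes were filtered with filterByExpr (13844 kept), scaled by TMM and tested by edgeR's robust quasi-likelihood test with region as the only term, at a Benjamini-Hochberg adjusted p under 0.05 over all genes tested. To obtain a standard error, the log2 fold change was divided by the root of its F statistic. Means over lists and correlations used log2 CPM with a prior count of 2. Exon lengths and promoters came from RefSeq on Sscrofa11.1, whose gene models may differ from those counted.

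Because each number marks 1 animal, it pairs a border zone with a remote zone library. After removal of region means, the correlation across genes between such libraries ran from -0.03 (animal 1022) to 0.57 (animal 1323), 0.35 on average. Alternatives were the animal as a block, the DESeq2 Wald test, other scalings and filters, no mitochondrial genes, and each animal left out. In a simulation of border zone against remote zone over 13844 genes, 200 of them changed, edgeR found 87.6% of 4-fold changes and 24.7% of 2-fold changes and made 0 false calls. The simulated libraries were independent, with no animal effect.

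The members and lists were chosen with earlier results of these data known. All members are named. Of each chaperone list, the genes past the threshold (up to 3 per direction) are named, or otherwise the 2 with the lowest p (1 such gene is not reported here), and for each member the 3 genes of highest correlation. Of the cell type lists only counts and levels are given, except for the 4 cardiomyocyte genes of an alternative.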

Additional observations from a re-analysis of the deposited data

Results flagged for a closer look

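Each member was checked for a library or animal far from the other 5, in the log2 CPM of each region and in the within-animal log2 ratio, by Dixon's test. Of the 24 groups of values checked, 5 held such a value, where chance gives about 1 in 20 for independent values. The ratios reuse the levels, and the share over all genes was not computed. The count therefore does not show an excess particular to the members.

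Animal 1022 accounted for 4 of the 5. Its log2 ratio of border to remote zone was -0.71 for HSPB1, -1.35 for HSPB3 and -1.67 for HSPB7, and the log2 CPM of HSPB3 in its border zone library was 4.09. This is the library in which the cardiomyocyte genes summed to 14606 CPM and the fibroblast and matrix genes to 74894 CPM. The part of this tissue mix in the 4 values was not tested.

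The remaining value was the log2 CPM of HSPB6 in the remote zone of animal 1623, at 9.81 (898 CPM against 1543 to 1752 CPM in the other 5). The same remote zone library was the lowest of its region for 5 of 8 members.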

How the results depend on the processing

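The number of genes called depended on the settings, while 1 of 8 members passed by DESeq2 and 0 of 8 under each of the other alternatives. Against 287 genes (285 higher, 2 lower), the animal as a replicate block gave 41 (40 and 1), the DESeq2 Wald test 1719 (1412 and 307), library totals 1551 (1545 and 6), no filter 139 (138 and 1) and at least 10 counts in every library 149 (149 and 0). Leaving out 1 animal gave 0 to 519 genes (0 to 509 higher, 0 to 10 lower), and with the block 0 to 856 (0 to 569 higher, 0 to 287 lower). By edgeR, 0 were called without animal 1623 or 3622 (2662 and 2448 at an unadjusted p under 0.05), 3 without 1323, 15 without 1922, 163 without 1022 and 519 without 1322. With the block these were 856 without 1022, 51 without 1322, 10 without 1323 and 0 without 1623, 1922 or 3622 (3227, 3565 and 2779 at an unadjusted p under 0.05).

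Of 152 log2 fold changes of members recomputed, 142 kept direction and side of the threshold, 1 passed it (DNAJB6 by DESeq2) and 9 changed sign. With library totals, HSPB1 came to 0.13, HSPB3 to 0.13, HSPB7 to 0.059 and HSPB8 to 0.18, while HSPB6 went to 0.60, CRYAB to 0.44 and BAG3 to 0.31. There the median of all genes moved from 0.038 to 0.32, and relative to it the first 4 kept their sign. Without 1 animal, HSPB6 ranged from 0.21 to 0.45, or 0.13 (without 1623) to 0.46 with the block. Without 1 animal, HSPB8 ranged from -0.22 (without 1322) to 0.13 (without 1022), or -0.25 to 0.15 with the block, and BAG3 from -0.048 (without 1322) to 0.19 (without 1022), or -0.029 to 0.24 with the block. With the block CRYAB ranged from -0.013 (without 1322) to 0.22 (without 1022). The replicate block changed no call of a member. DNAJB6 stayed below 0 throughout, from -0.64 to -0.24, with adjusted p from 0.0412 to 0.370. The within-animal medians of HSPB1, HSPB3, HSPB7, HSPB8 and BAG3 changed sign with library totals, and those of HSPB8, CRYAB and BAG3 did so with an animal left out. Relative to the cardiomyocyte list, HSPB8 moved from 0.61 to 0.23 with 4 genes in place of 12. The cause of these shifts was not tested. In the simulation over all genes tested, 2-fold changes were mostly missed, and the rate for the members alone was not computed. A value short of the threshold therefore does not show that regions did not differ.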

Other observations

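Pairs of members were compared within animals, a comparison chosen after values had been seen and given with no test. How often pairs of other genes keep 1 direction in all 6 animals was not computed, so the counts below have no background. Of 28 pairs, 8 had the same direction in all 6 animals. DNAJB6 was the lower of the pair in 5 of these, beside HSPB6, CRYAB, BAG3, HSPB8 and HSPB1, and HSPB7 was the lower in 3, beside HSPB6, CRYAB and HSPB8. The log2 ratio of border to remote zone of HSPB6 exceeded that of HSPB7 by 0.23 to 0.90 (median 0.56), and that of CRYAB exceeded that of HSPB7 by 0.087 to 1.17 (median 0.25). HSPB6 exceeded DNAJB6 by 0.30 to 1.24 (median 0.80).

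The spread between animals within a region also differed among members. In the remote zone the SD of log2 CPM was 0.18 for DNAJB6 and 0.26 for HSPB7, beside a median of 0.38 over all genes, and 0.54 for BAG3, a spread larger than that of 71.5% of genes. In the border zone the SD of HSPB3 was 0.66 with all 6 animals and 0.21 without animal 1022, and that of BAG3 was 0.33 and 0.34, so the order of the members there rested on that animal.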
